A study of Mus musculus with 7 samples.

Results

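The naive pluripotency transcription factors are 10 genes, Nanog, Klf2, Klf4, Klf5, Esrrb, Tfcp2l1, Tbx3, Prdm14, Zfp42 and Gbx2. They were taken by symbol as known regulators of the naive state, and each matched 1 Ensembl identifier among the 52636 genes of the table. All 10 were among the 16248 genes that passed the expression filter and were tested, although Gbx2 was close to the limit of detection.

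The study asked how the transcriptome of the pre-implantation epiblast responds when ERK is switched on. The embryos carried a tamoxifen-inducible cRAF construct (genotype Sox2Cre;CRAFR26) and were flushed at embryonic day 2.5. All of them, vehicle embryos included, were cultured for 24 h in KSOM medium with 250 nM PD173074, an inhibitor of the FGF receptors that normally feed ERK in the blastocyst. The tamoxifen group (time label 4 h, 4 libraries) received 250 nM 4-hydroxytamoxifen for 4 h. The vehicle group (time label 0 h, 3 libraries) received ethanol for the same 4 h, so it is not an untreated group. By its name the Cre allele is driven by Sox2, a gene of the inner cell mass (ICM) and epiblast. The construct came as 2 biological clones of targeted embryonic stem cells, clone 4 and clone 8. Vehicle libraries were clone4_1, clone4_2 and clone8_1, and tamoxifen libraries were clone4_1, clone4_2, clone8_1 and clone8_2. Another vehicle sample was dropped by the study at quality control, so clone 8 has 1 vehicle library. Each library was a pool of 10 ICMs freed from the trophectoderm by immunosurgery.

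Naive pluripotency is the state of the epiblast before implantation, when its cells can still form every tissue of the embryo. A set of transcription factors that bind each other's genes holds this state together with Pou5f1 and Sox2. LIF, acting through Stat3, and Wnt signalling feed the set through Klf4, Tfcp2l1, Esrrb, Tbx3 and Gbx2. FGF acting through ERK is known for taking cells out of this state: in embryonic stem cells inhibition of the kinase above ERK preserves it, and ERK activity lowers Nanog and several of its partners. In the blastocyst the same signal turns part of the ICM from epiblast to primitive endoderm. Several members also have roles elsewhere in the blastocyst; Klf5 and Tbx3 are among those that act in trophectoderm or primitive endoderm as well.

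The members are themselves targets of the network, and 3 of their promoters are shown for this reason: those of Nanog and Zfp42, the most abundant members per length, and that of Klf4, the member with the smallest p. RefSeq (GRCm38.p6) gave a promoter window for 7 of the 10 members, and 2 of these 7 had 2 starts. Each run below is the 250 bases before the start on the gene's strand, 5′ to 3′. Capitals mark in Nanog an octamer-like run and a Sox-like run (TTTGCAT and, 1 base further on, ACAATG), the kind of element that Pou5f1 and Sox2 bind together. In Zfp42 they mark an octamer (ATGCAAAT), GC boxes (CCCGCCC) and CACCC boxes (CACCC), the last 2 being sequences that Krüppel-like factors can bind. In Klf4 they mark GC boxes, of which the first 2 overlap.
Nanog, chr6:122707239-122707488, plus strand: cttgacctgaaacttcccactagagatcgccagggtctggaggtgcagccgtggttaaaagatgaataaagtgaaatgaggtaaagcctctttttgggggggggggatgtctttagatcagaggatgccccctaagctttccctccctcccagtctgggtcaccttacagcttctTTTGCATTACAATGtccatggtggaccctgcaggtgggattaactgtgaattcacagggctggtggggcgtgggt
Zfp42, chr8:43307010-43307259, minus strand: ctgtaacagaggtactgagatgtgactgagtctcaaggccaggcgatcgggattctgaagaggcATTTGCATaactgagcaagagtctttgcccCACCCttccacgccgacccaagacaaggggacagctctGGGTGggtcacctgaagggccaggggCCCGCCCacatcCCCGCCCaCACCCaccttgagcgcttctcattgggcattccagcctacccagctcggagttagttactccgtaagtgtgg
Klf4, chr4:55532476-55532725, minus strand: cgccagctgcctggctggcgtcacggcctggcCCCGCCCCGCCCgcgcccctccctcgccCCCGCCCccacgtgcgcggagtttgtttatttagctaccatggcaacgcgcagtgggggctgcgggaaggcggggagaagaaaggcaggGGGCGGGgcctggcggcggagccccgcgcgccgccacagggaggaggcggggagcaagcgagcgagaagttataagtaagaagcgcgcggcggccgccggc

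Both strands were searched in all 32851 windows of this length. The joined octamer and Sox runs occurred in 2 windows (0.00609%), which are the 2 overlapping Nanog windows and hold 1 site, 75 bases before one start and 151 before the other. The octamer occurred in 1.60% of windows and, among the members, in Zfp42, 186 bases before its start. A GC box was present in 23.4% of windows and in Klf2, Klf4 and Zfp42, and a CACCC box in 52.0% of windows and in Esrrb, Gbx2, Klf2, Nanog and Zfp42. No window of a member held the letters AAGGTCA (bound by Esrrb, in 4.08% of windows), TTCCNGGAA (Stat3, 0.913%), CCGGAAG (ETS factors, 6.91%) or TGANTCA (AP-1, 6.75%). These matches describe letters in the windows and nothing was measured on binding.

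Total counts ranged from 22981498 to 42294719 per library. The label epiblast was checked against markers: the 6 epiblast markers besides the members (Sox2, Pou5f1, Fgf4, Tdgf1, Utf1, Gdf3) were counted in every library, with a summed level of 1169 to 1901 CPM (each count relative to its library total, after TMM scaling). The 10 trophectoderm markers were counted in every library too, at 6541 to 11219.9 CPM in sum, and of 9 primitive endoderm markers Sox7 was at 0 in 1 library and under 1 CPM in the rest. RNA of the epiblast and trophectoderm markers was therefore in each pool. Most of the primitive endoderm sum was Dab2, and Sox17 was at 0.298 CPM in vehicle clone4_1. That list does not settle whether every pool held primitive endoderm. Fewer cells of a type cannot be told apart from less RNA per cell. Both libraries numbered clone8_1 stand apart from the rest in classes of genes set by length or GC content. In vehicle clone8_1 the 643 tested protein-coding genes with a longest transcript under 1000 nt lay at a median of -1.64 (log2) relative to the median library, against -0.06 to 0.27 in the other libraries. The members have longest transcripts of 1837 nt (Zfp42) to 9269 nt (Tfcp2l1), outside that class. The median over the 12436 longer genes was 0.00 in every library. As these are most of the genes, scaling and centring largely fix that value, and it does not show that single members were unaffected. Klf2 falls in a class of high GC content given below. In tamoxifen clone8_1 the 315 genes of 2000 nt or more with at least 60% GC lay at 0.43, against -0.13 to 0.00 in the rest. The changes of the members and the counts of each list are therefore given also without these 2 libraries.

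Under FGF receptor inhibition most of the set was well expressed in the ICM pools. The pools also held RNA of trophectoderm markers, so these levels do not place a member in a single cell type. Compared per length (CPM per kilobase of merged exons), Nanog had the highest vehicle level at 258 ± 62.5 (SD, n = 3). Zfp42 (Rex1), a zinc-finger gene used as a reporter of the naive state, followed at 174 ± 26.8 (SD, n = 3), and its range reached that of Nanog (143 to 191 against 191 to 314), although Nanog was above Zfp42 in every library. A middle tier lay clearly below both: Klf5 at 65.9 ± 17.6, Tfcp2l1 at 53.0 ± 4.63 and Tbx3 at 47.4 ± 5.16 CPM per kilobase (SD, n = 3), with overlapping ranges. A lower tier held Klf4 at 18.7 ± 2.93, Klf2 at 17.6 ± 9.09, Prdm14 at 12.2 ± 2.94 and Esrrb at 8.67 ± 1.43 CPM per kilobase (SD, n = 3), each overlapping its neighbour. Gbx2 was last at 0.306 ± 0.401 CPM per kilobase (SD, n = 3). The 3 gaps between the tiers, below Zfp42, below Tbx3 and below Esrrb, showed no overlap between the vehicle libraries of the adjoining genes. The tamoxifen libraries gave the same order of means, and the adjoining genes at these gaps did not overlap. Their middle and lower tiers did overlap: in tamoxifen clone8_1 Klf2 (33.1 CPM per kilobase) lay above Tbx3 (31.2 CPM per kilobase). With the longest transcript as the length, Klf5 moved to 102 and Tbx3 to 63.0 CPM per kilobase in vehicle libraries, and Tbx3 then stood above Tfcp2l1.

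**Figure D1:**
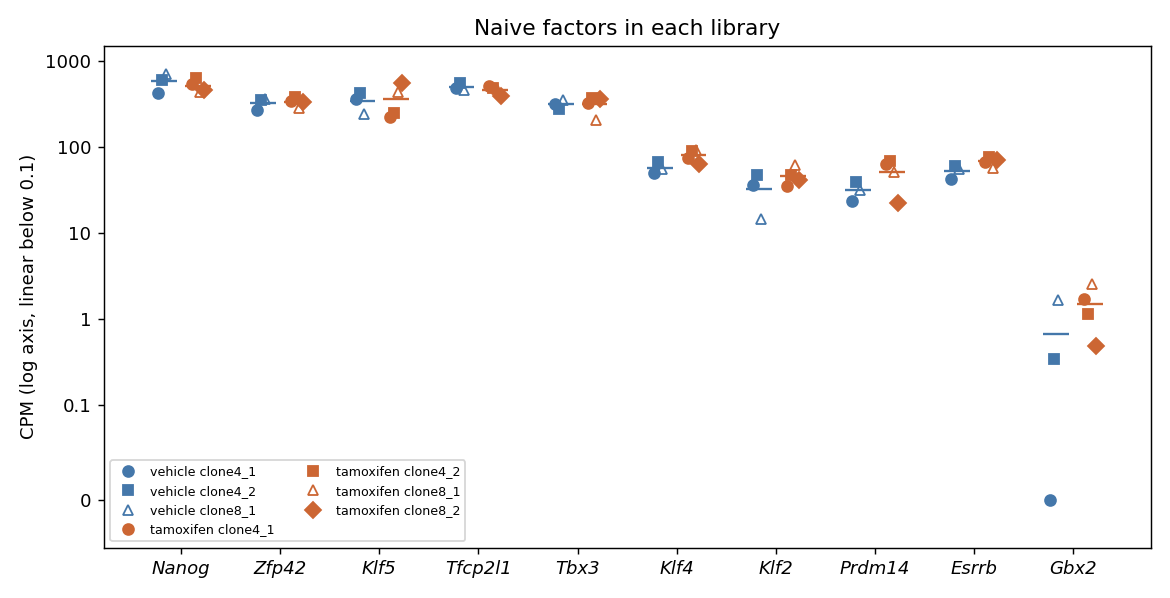
CPM of the 10 naive factors in each library, on a log axis that is linear below 0.1 CPM, ordered by vehicle level per kilobase (blue vehicle, orange tamoxifen, short lines the group means, open triangles the libraries numbered clone8_1). The groups overlap for every member, and Gbx2 lies under 3 CPM in all 7 libraries.

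No naive factor passed the test after 4 h of tamoxifen. Of the 10, 0 had an adjusted p under 0.05 (edgeR, quasi-likelihood, Benjamini-Hochberg), and of all 16248 genes 0 did (0%). At an unadjusted p under 0.05 there was 1 member, Klf4, against 5.97% of all tested genes (970). DESeq2 also had Klf4 alone at an unadjusted p under 0.05 (7.49% of all genes) and 0 members at an adjusted p under 0.05 (0.0246%). The CPM of the groups overlapped for all 10 members, while 8.45% of all genes tested showed no overlap. Fitted changes lay above 0 for 8 members and below 0 for Nanog and Tfcp2l1, against 51.7% above 0 over all genes. The median of the 10 log2 fold changes was 0.23, against 0.02 for all genes tested. It went to 0.12 without vehicle clone8_1, to 0.37 without vehicle clone4_2 and to 0.11 under a filter at a mean count of 50 that leaves out Gbx2. With both clone8_1 libraries left out, 7 of 10 were above 0 (49.6% of all genes) and the median was 0.21; 0 members passed adjustment there (0.0119% of all genes) and 1, Esrrb, had an unadjusted p under 0.05 (7.25%). Summed over the 10 genes, vehicle libraries had 2236 ± 212 CPM (SD, n = 3) and tamoxifen libraries had 2247 ± 139 CPM (SD, n = 4). Most of this sum was Nanog, Tfcp2l1, Klf5, Zfp42 and Tbx3.

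**Figure D2:**
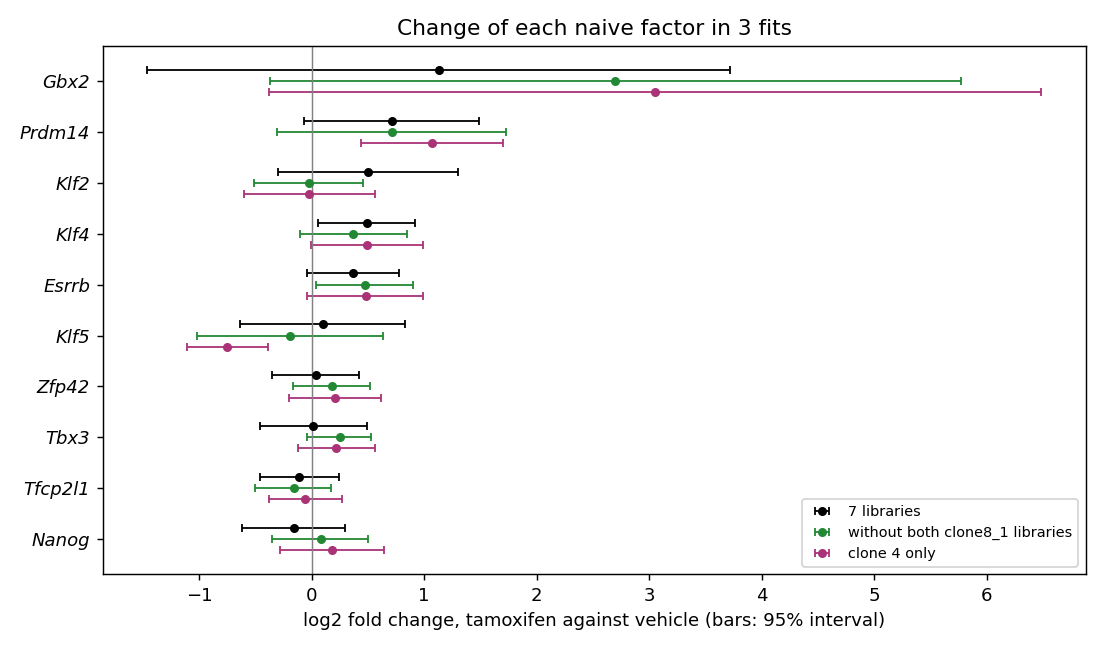
Log2 fold change of each naive factor, tamoxifen against vehicle, with its 95% interval, from all 7 libraries (black), without both clone8_1 libraries (green) and from clone 4 alone (purple). Most intervals include 0; Klf4 from 7 libraries (0.06 to 0.92), Esrrb without the clone8_1 libraries (0.04 to 0.90) and Prdm14 and Klf5 in clone 4 do not, and none of these passed adjustment over all genes.

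Nanog, the homeodomain factor whose level separates epiblast from primitive endoderm, did not show a fall beyond the spread of the libraries. Nanog (ENSMUSG00000012396, GRCm38 chromosome 6, 122707489 to 122714633, plus strand) had 427, 603 and 704 CPM in vehicle clone4_1, clone4_2 and clone8_1. The tamoxifen libraries had 534 CPM in clone4_1, 639 in clone4_2, 433 in clone8_1 and 466 in clone8_2. The lowest and the highest value of all 7 were both vehicle libraries. Its log2 fold change was -0.16 ± 0.21 (SE; 95% interval -0.62 to 0.30, adjusted p = 0.877 in edgeR's quasi-likelihood test). Its sign turned to 0.08 without both clone8_1 libraries and to 0.18 in clone 4 alone. A processed pseudogene, Nanog-ps1, had 0 to 5 counts per library, against at least 11995 for Nanog.

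Of the 5 most abundant members per length, Tfcp2l1 and Zfp42 varied least between libraries, with biological coefficients of variation of 18.8% and 19.6%. Zfp42 (ENSMUSG00000051176, chromosome 8, 43295063 to 43306980, minus strand) had 269.7, 354 and 359.9 CPM in the vehicle libraries clone4_1, clone4_2 and clone8_1. With tamoxifen it had 340.1 CPM in clone4_1, 386 in clone4_2, 285 in clone8_1 and 334 in clone8_2. All tamoxifen values but the highest lay inside the vehicle range, and the log2 fold change was 0.04 ± 0.17 (SE; 95% interval -0.35 to 0.42), or 0.18 ± 0.15 (SE) without both clone8_1 libraries. Tfcp2l1 (ENSMUSG00000026380, chromosome 1, 118627945 to 118685168, plus strand), a CP2-family factor downstream of Stat3, had 484, 549 and 466 CPM in the same vehicle libraries. Its tamoxifen values were 518 CPM in clone4_1, 481 in clone4_2, 468 in clone8_1 and 388 in clone8_2. Only clone8_2 lay below the vehicle range, and the log2 fold change was -0.11 ± 0.16 (SE; 95% interval -0.46 to 0.24), or -0.16 ± 0.15 (SE) without both clone8_1 libraries. For both genes the intervals leave out a doubling and a halving.

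The 3 Krüppel-like factors of the set, zinc-finger proteins that can stand in for each other in embryonic stem cells, gave 3 different patterns. Klf4 (ENSMUSG00000003032, chromosome 4, 55527143 to 55532466, minus strand) had 49.6, 66.9 and 54.6 CPM in vehicle clone4_1, clone4_2 and clone8_1. The tamoxifen libraries had 74.8 CPM in clone4_1, 89.8 in clone4_2, 92.7 in clone8_1 and 62.6 in clone8_2. Of the tamoxifen libraries, 3 lay above all vehicle libraries and clone8_2 lay inside their range. This gave a log2 fold change of 0.49 ± 0.19 (SE; 95% interval 0.06 to 0.92; edgeR unadjusted p = 0.0305, adjusted p = 0.794). The value kept its sign in all 18 alternatives, between 0.37 and 0.62, and had an unadjusted p under 0.05 in 10 of them. It was 0.37 without both clone8_1 libraries (unadjusted p = 0.109, edgeR).

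Klf2 (ENSMUSG00000055148, chromosome 8, 72319033 to 72321656, plus strand) had 35.7 CPM in vehicle clone4_1, 47.6 in clone4_2 and 14.4 in clone8_1. The tamoxifen libraries had 35.3 CPM in clone4_1, 47.4 in clone4_2, 61.2 in clone8_1 and 40.7 in clone8_2. The 2 libraries numbered clone8_1 were the lowest and the highest of the 7, and the rest lay between 35.3 and 47.6 CPM. The log2 fold change of 0.50 ± 0.36 (SE, adjusted p = 0.803 in edgeR's quasi-likelihood test) accordingly went to -0.02 ± 0.21 (SE) without them. The longest Klf2 transcript has a GC content of 61.6%. The 162 tested genes of 1000 to under 2000 nt with at least 60% GC lay at a median of -0.30 (log2) in vehicle clone8_1 and 0.42 in tamoxifen clone8_1, against 0.00 in the other 5 libraries; the part of this in the values of Klf2 was not tested.

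Klf5 (ENSMUSG00000005148, chromosome 14, 99298691 to 99315036, plus strand), which acts in the ICM and the trophectoderm, moved in opposite directions in the clones. In clone 4 it had 361 and 424 CPM in the vehicle libraries and 222 and 249 CPM in the tamoxifen libraries. In clone 8 it had 243 CPM in the vehicle library and 432 and 561 CPM in the tamoxifen libraries. Within each clone no tamoxifen value overlapped a vehicle value. In clone 8, with 1 vehicle library, 74.5% of all genes showed no overlap (6 of the 10 members) and 37.9% showed none and were higher. Over both clones the log2 fold change was 0.10 ± 0.33 (SE, adjusted p = 0.956 in edgeR's quasi-likelihood test), or -0.19 ± 0.36 (SE) without both clone8_1 libraries. In clone 4 alone it was -0.75 ± 0.15 (SE, unadjusted p = 0.00171, adjusted p = 0.550, edgeR), where 39.5% of all genes showed no overlap with 2 libraries a group and 19.6% showed none and were lower. The difference between the clones, clone 8 minus clone 4, was 1.77 ± 0.30 on the log2 scale (SE; 95% interval 1.09 to 2.45) and passed the test of the interaction of clone and treatment (adjusted p = 0.0171 in edgeR's quasi-likelihood test). It was the only member of the 10 that did, where 3.16% of all genes tested passed. Of those 514 genes 510 (3.14% of all tested) were, like Klf5, higher in clone 8, and 4 were lower. The clone 8 side rests on 1 vehicle library, whose spread the fit takes from the other groups. That library is vehicle clone8_1, in which short transcripts were low, although the longest Klf5 transcript has 3352 nt and a GC content of 47.9%. Without tamoxifen clone4_1 the difference was 1.64 (adjusted p = 0.129) and without tamoxifen clone4_2 it was 1.84 (adjusted p = 0.114), so the call was lost in both cases while the size stayed. In the other 11 of 13 alternatives it was called, with adjusted p from 3.25e-06 to 0.0497 in the tool named for each.

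Klf2 and Nanog had an unadjusted p under 0.05 in the same interaction test, as Klf5 did, against 14.8% of all genes. The difference between clones was 1.83 ± 0.47 for Klf2 (SE, adjusted p = 0.0982) and -0.83 ± 0.30 for Nanog (SE, adjusted p = 0.254) in edgeR's quasi-likelihood test. For Nanog the clone 8 vehicle library was the highest of all and for Klf2 it was the lowest. For Klf4 the clones gave 0.51 in clone 4 and 0.48 in clone 8 as differences of mean log2 CPM, the latter without a test.

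**Figure D3:**
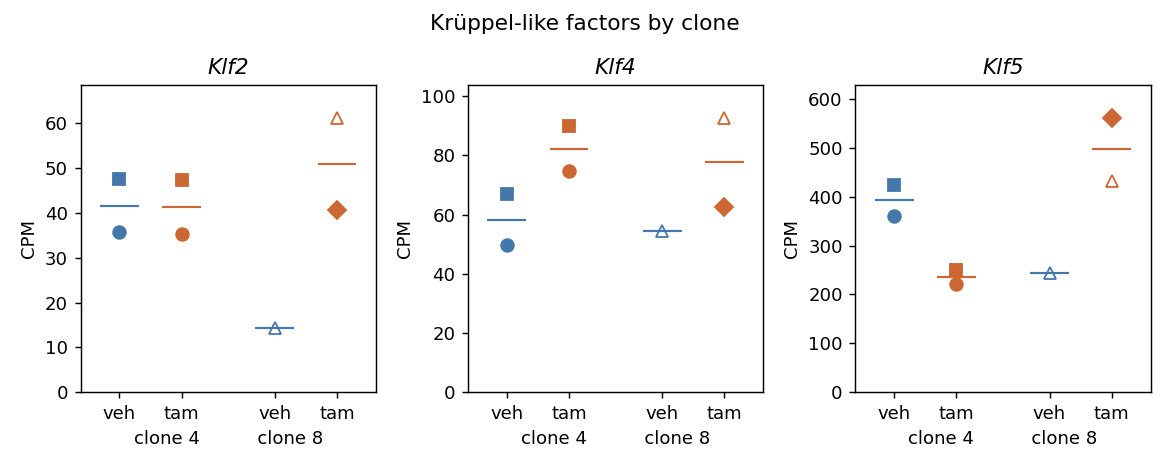
CPM of Klf2, Klf4 and Klf5 in vehicle (veh, blue) and tamoxifen (tam, orange) libraries of clone 4 and clone 8, with short lines for means, axes from 0 and open triangles for the libraries numbered clone8_1. Klf5 is lower with tamoxifen in clone 4 (222 and 249 against 361 and 424 CPM) and higher in clone 8 (432 and 561 against 243 CPM).

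Among 17 Klf genes counted, 15 were tested, and 2 had an unadjusted p under 0.05, Klf4 and Klf6, against 5.97% of all genes. The 3 highest mean levels per kilobase over all libraries were those of Klf5, Klf6 and Klf4. Klf6, a broadly expressed member of the family, was at 65.2 ± 19.2 CPM per kilobase (SD, n = 3) in vehicle and 40.0 ± 1.84 CPM per kilobase (SD, n = 4) in tamoxifen libraries without overlap. Its log2 fold change was -0.70 ± 0.20 (SE, adjusted p = 0.794 in edgeR's quasi-likelihood test), and -0.92 without both clone8_1 libraries. Klf10 was lower without overlap too, at 21.9 ± 2.79 CPM per kilobase with vehicle (SD, n = 3) and 16.5 ± 3.20 with tamoxifen (SD, n = 4), where 4.74% of all genes showed this. Its unadjusted p was 0.063 (edgeR). Klf10 was not among the 3 highest levels and was singled out after its values were seen.

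Esrrb, an orphan nuclear receptor and a target of Nanog and of the Wnt effector Tcf7l1, and Tbx3, a T-box factor, were examined next. Esrrb (ENSMUSG00000021255, chromosome 12, 86361117 to 86521628, plus strand) had 42.8, 59.6 and 54.8 CPM in vehicle clone4_1, clone4_2 and clone8_1. The tamoxifen libraries had 66.9 CPM in clone4_1, 76.8 in clone4_2, 57.0 in clone8_1 and 70.4 in clone8_2. All tamoxifen libraries except clone8_1 lay above the vehicle range. Over all libraries the log2 fold change was 0.37 ± 0.18 (SE; 95% interval -0.04 to 0.78, unadjusted p = 0.0696, edgeR), and without both clone8_1 libraries it was 0.47 ± 0.19 (SE, unadjusted p = 0.0344, adjusted p = 0.668, edgeR).

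Tbx3 (ENSMUSG00000018604, chromosome 5, 119670669 to 119684724, plus strand) had 313, 280.0 and 348 CPM in vehicle clone4_1, clone4_2 and clone8_1. The tamoxifen libraries had 327 CPM in clone4_1, 368 in clone4_2, 207 in clone8_1 and 363 in clone8_2. Tamoxifen clone8_1 was the lowest of all 7 libraries and 2 other tamoxifen libraries were the highest. Its log2 fold change was 0.01 ± 0.21 (SE), and 0.25 ± 0.13 (SE, adjusted p = 0.734, edgeR) without both clone8_1 libraries. An antisense gene, Tbx3os1, shares 115 nt of exon with Tbx3 and had 24 to 128 counts. Without both clone8_1 libraries, 3 members showed no overlap between groups, all higher with tamoxifen (Esrrb, Tbx3 and Gbx2). There 23.6% of all genes showed none in either direction and 11.7% showed none and were higher. Gbx2 passed the filter of that fit only through tamoxifen libraries, the group in which it is higher.

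Prdm14, a PR-domain protein that restrains FGF receptor signalling and DNA methylation in embryonic stem cells, was high in 3 tamoxifen libraries and low in the other. Prdm14 (ENSMUSG00000042414, chromosome 1, 13113457 to 13127163, minus strand) had 23.7, 38.7 and 31.8 CPM in vehicle clone4_1, clone4_2 and clone8_1. The tamoxifen libraries had 63.1 CPM in clone4_1, 68.6 in clone4_2, 50.9 in clone8_1 and 22.4 in clone8_2. In 3 tamoxifen libraries the value was above all vehicle libraries, and in clone8_2 it was below all of them. Over all libraries the log2 fold change was 0.71 ± 0.35 (SE; 95% interval -0.07 to 1.49, adjusted p = 0.794, edgeR) and 1.07 ± 0.26 in clone 4 alone (SE, unadjusted p = 0.00487, adjusted p = 0.550, edgeR). It was 0.71 ± 0.45 (SE) without both clone8_1 libraries. Klf5 and Prdm14 were the 2 members with an unadjusted p under 0.05 in clone 4, against 7.87% of all genes tested there, and 0 members passed adjustment (0%).

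Gbx2 (ENSMUSG00000034486, chromosome 1, 89927956 to 89931179, minus strand), a homeodomain factor that LIF and Stat3 induce in embryonic stem cells, was barely counted. Vehicle clone4_1 had 0 counts of it, clone4_2 had 11 and clone8_1 had 68. With tamoxifen, clone4_1 had 72 counts, clone4_2 had 26, clone8_1 had 71 and clone8_2 had 20. Vehicle clone8_1 (1.66 CPM) lay inside the tamoxifen range (0.485 to 2.56 CPM). The log2 fold change of 1.13 ± 1.16 (SE; 95% interval -1.46 to 3.72) has an interval too wide to place, and Gbx2 passed the expression filter through the tamoxifen group. Without both clone8_1 libraries the value was 2.70 ± 1.34 (SE; 95% interval -0.37 to 5.77). A gene on the other strand, D130058E05Rik, shares 946 nt of exon with Gbx2 and had 0 to 13 counts, 13 of them in vehicle clone8_1.

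Across the set the libraries separated by group only in part. The deviation of each member from its own median log2 CPM was summarised as a median per library. By this value tamoxifen clone8_2 (-0.06) lay below vehicle clone4_2 (0.03). The other tamoxifen libraries (0.05 to 0.20) lay above every vehicle library (-0.33 to 0.03). Vehicle clone4_1 was the lowest library for 5 members (Nanog, Klf4, Esrrb, Zfp42 and Gbx2) and tamoxifen clone4_2 was the highest for 4 (Esrrb, Tbx3, Prdm14 and Zfp42). Vehicle clone4_1 also had the highest sum of trophectoderm markers (11219.9 CPM) and the lowest sum of epiblast markers (1169 CPM), and tamoxifen clone4_2 had the highest sum of epiblast markers (1901 CPM). Without vehicle clone4_1 the members above 0 went from 8 to 6 of 10, as they did without tamoxifen clone4_2 or tamoxifen clone8_2. Without vehicle clone4_1 the change of Esrrb went from 0.37 to 0.23 and that of Prdm14 from 0.71 to 0.52. The median biological coefficient of variation was 22.5% over the 10, from 18.8% (Tfcp2l1) to 99.4% (Gbx2), against 35.8% over all genes tested. Genes were not matched for expression level in this comparison, and the part of level in it was not tested.

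**Figure D4:**
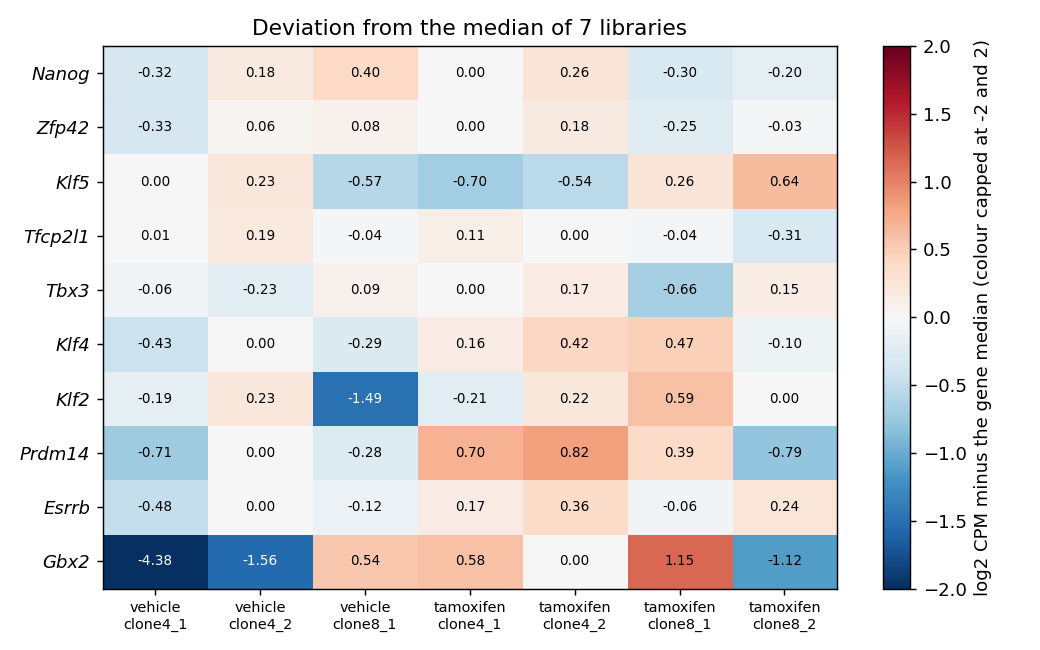
Log2 CPM of each naive factor in each library minus the median of that factor over the 7 libraries, with genes in rows and libraries in columns (red higher, blue lower, colour capped at -2 and 2). Vehicle clone4_1 is below the median for 8 of the 10 (all but Klf5 and Tfcp2l1), and the low value of Klf2 (-1.49) is in vehicle clone8_1.

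Other genes of the network were read in the same way. Of 12 core and naive partners 11 were tested and 0 had an adjusted p under 0.05 in edgeR, with 6 above 0, a median log2 fold change of 0.12 and 1 at an unadjusted p under 0.05 (Dppa3). Over all genes 51.7% were above 0 and 5.97% had such a p. With both clone8_1 libraries left out 12 partners were tested, with 8 above 0 (49.6% of all genes) and a median of 0.11. There 2 had an unadjusted p under 0.05 in edgeR (Nr0b1 and Dppa3), against 7.25% of all genes. Nr0b1 passed the filter of that fit only through tamoxifen libraries, the group in which it is higher. Without overlap of the groups there were 3 partners of 11, Dppa3, Nr5a2 and Tfap2c, against 8.45% of all genes. Pou5f1, the core POU factor, stood at 570.4 ± 22.0 CPM with vehicle (SD, n = 3) and at 522 ± 31.2 CPM with tamoxifen (SD, n = 4), and its log2 fold change was -0.13 ± 0.14 (SE). Sox2, its partner, stood at 14.5 ± 2.76 CPM with vehicle (SD, n = 3) and 19.8 ± 4.54 CPM with tamoxifen (SD, n = 4). Dppa3 (Stella), which protects methylation at imprinted loci in the early embryo, was higher in all tamoxifen libraries (3844 to 4763 CPM) than in all vehicle libraries (1818 to 3717 CPM), with a log2 fold change of 0.58 ± 0.23 (SE, adjusted p = 0.794, edgeR). Its longest transcript of 833 nt is in the class that was low in vehicle clone8_1, and without both clone8_1 libraries the value was 0.29. The nuclear receptor Nr5a2 (92.4 to 111 against 113 to 125 CPM) and Tfap2c (214 to 285 against 288 to 301 CPM) were lower without overlap, with log2 fold changes of -0.21 ± 0.15 and -0.18 ± 0.15 (SE). Nr0b1 (Dax1) did not pass the filter with all 7 libraries, with 1 or 2 counts in vehicle libraries and 4 to 26 in tamoxifen libraries. Fgf4, the FGF ligand of the epiblast, was at 19.1 ± 10.7 CPM with vehicle (SD, n = 3) and 35.4 ± 13.1 CPM with tamoxifen (SD, n = 4), a log2 fold change of 0.89 that went to 0.29 without both clone8_1 libraries.

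Genes known to follow ERK, and those of the next, formative state of the epiblast, were read in the same libraries. Of 8 ERK feedback genes all were tested and 0 passed adjustment in edgeR, with 6 above 0, a median log2 fold change of 0.48 and 1 at an unadjusted p under 0.05 (Spry2), against 51.7% and 5.97% of all genes. Without both clone8_1 libraries 7 were above 0 (49.6% of all genes) and the median was 0.66. There 3 had an unadjusted p under 0.05 in edgeR (Spry2, Spry4 and Etv5, against 7.25% of all genes) and 4 showed no overlap, against 23.6%. Etv4, above 0 in both fits, passed the filter only through tamoxifen libraries, the group in which its mean is higher. It had 0.0992 to 0.373 CPM with vehicle and 0.0862 to 1.77 CPM with tamoxifen. Spry2, an inhibitor of receptor tyrosine kinase signalling, was higher in every tamoxifen library (109 to 129 CPM) than in every vehicle library (45.4 to 82.4 CPM), with a log2 fold change of 0.86 ± 0.21 (SE; edgeR unadjusted p = 0.00229, adjusted p = 0.794). Dusp6, an ERK phosphatase, was at 38.3 ± 12.1 CPM with vehicle (SD, n = 3) and 34.0 ± 7.83 CPM with tamoxifen (SD, n = 4). Of 8 formative genes 5 were tested, 0 passed adjustment and 2 lay above 0 (51.7% of all genes). Of them 1 had an unadjusted p under 0.05 in edgeR (5.97% of all genes), as 1 of 7 tested did without both clone8_1 libraries (7.25%). That gene, Dnmt3b, a de novo DNA methyltransferase, was lower without overlap (108 to 178 against 179 to 244 CPM), where 4.74% of all genes showed this. Its log2 fold change was -0.54 ± 0.20 (SE). Otx2, a regulator of the formative state, had a log2 fold change of 0.19 ± 0.24 (SE).

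Markers of the 3 lineages were read beside the members, and 0 of them had an adjusted p under 0.05 in edgeR. The 10 trophectoderm markers summed to 8525 to 11219.9 CPM in vehicle and 6541 to 9528 CPM in tamoxifen libraries, and the fitted change was below 0 for all 10, with a median of -0.33 and 3 at an unadjusted p under 0.05, where 3.28% of all genes were lower at such a p. Without both clone8_1 libraries the median was -0.49, 7 of 10 were lower at an unadjusted p under 0.05 (3.98% of all genes) and 7 were lower without overlap (11.9%). Gata3, a trophectoderm factor, had 607 to 699 CPM with tamoxifen and 828 to 986 CPM with vehicle. The 6 epiblast markers summed to 1169 to 1322 CPM in vehicle and 1244 to 1901 CPM in tamoxifen libraries. Of them 5 were above 0 (51.7% of all genes), with a median of 0.56. Without both clone8_1 libraries 5 were above 0 (49.6% of all genes) and the median was 0.44. Among these markers Utf1 (283 to 408 against 216 to 249 CPM) and Gdf3 (92.7 ± 17.4, SD, n = 4, against 62.7 ± 6.05 CPM, SD, n = 3) were higher without overlap, at unadjusted p of 0.00817 and 0.0129 (edgeR). Over all genes 3.71% were higher without overlap and 5.97% had an unadjusted p under 0.05. The 9 primitive endoderm markers summed to 804 to 1104 CPM in vehicle and 841 to 978 CPM in tamoxifen libraries, and most of each sum was Dab2 (742 ± 94.1 CPM, SD, n = 3, with vehicle and 643 ± 77.5 CPM, SD, n = 4, with tamoxifen). Of the 8 tested, 6 were above 0, Dab2 was not, and 2 had an unadjusted p under 0.05 (Sox17 and Lama1), against 51.7% and 5.97% of all genes. Without both clone8_1 libraries 7 of 9 were above 0 and 4 had an unadjusted p under 0.05 (Sox17, Lama1, Col4a1 and Col4a2), against 49.6% and 7.25% of all genes. Sox17, an endoderm factor, had 0.298 to 4.33 CPM with vehicle and 7.80 to 27.1 CPM with tamoxifen. Gata3, Utf1, Gdf3 and Sox17 were singled out after their values were seen. The sum of the naive factors, most of it from Nanog, Tfcp2l1, Klf5, Zfp42 and Tbx3, had nearly the same mean in both groups. As a mean of log2 CPM over the 10, vehicle clone4_1, clone4_2 and clone8_1 had 5.92, 6.52 and 6.44. Tamoxifen clone4_1, clone4_2, clone8_1 and clone8_2 had 6.69, 6.80, 6.76 and 6.45. Gbx2, near the floor, moves that mean too (-4.38 from its median in vehicle clone4_1). The part of lineage proportions in the values of single members was not tested.

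**Figure D5:**
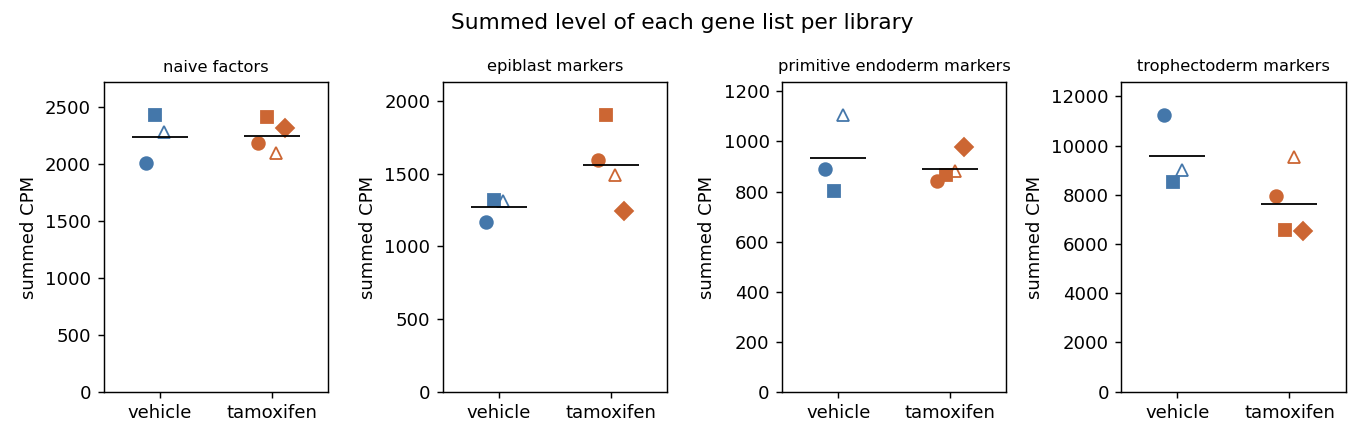
Summed CPM of the naive factors and of the epiblast, primitive endoderm and trophectoderm markers in each library, with vehicle in blue, tamoxifen in orange, black lines for group means, axes from 0 and open triangles for the libraries numbered clone8_1. The naive factors lie at 2006 to 2423 CPM in vehicle and 2090.0 to 2406 CPM in tamoxifen libraries, while the trophectoderm sum has its 3 lowest values in tamoxifen libraries.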

How the data were processed

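RNA from 7 pools of 10 ICMs was sequenced from 2 ng per library with a low-input amplification kit, per the labels' protocols. The authors deposited 1 table of unnormalised counts by Ensembl identifier. STAR 2.5.3a, bcl2fastq 2.19.1 and build mm10 are named in the submitters' processing notes; the counting program, annotation release, strand setting and duplicate handling are not given in the sources used here, so reads shared with antisense genes or pseudogenes cannot be assigned. Symbols and GRCm38 coordinates are from GENCODE M21 (52489 of 52636 genes matched). Counts per library (22981498 to 42294719) are amplified reads, not molecules.

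The fits used edgeR 4.0.16 under R 4.3.3 (TMM factors, expression filter by group, quasi-likelihood test with treatment as the only term, Benjamini-Hochberg adjustment over all tested genes, call at 0.05). The interaction fit had clone, treatment and their product. Log2 CPM used a prior count of 2. The SE of a change was taken from the F statistic. The alternatives were DESeq2 1.42.0, limma 3.58.1 voom with sample weights, 3 scalings, 2 filters, clone or replicate name as a term, and subsets of libraries. The fits were tested on simulated data.

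All members were named. Of the partner, ERK feedback and formative lists, a gene was named at an unadjusted p under 0.05, without overlap of groups, or from a short fixed set. The members and lists were chosen with earlier results of these data known. The labels do not say how the pooled embryos were drawn from litters, so p-values measure the spread between pools.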

Additional observations from a re-analysis of the deposited data

Results flagged for a closer look

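The effect of tamoxifen on Klf5 differed between clones by 1.77 on the log2 scale (clone 8 minus clone 4), which passed the clone-by-treatment interaction test (adjusted p = 0.0171, edgeR's quasi-likelihood test). All 3 clone 8 libraries and all 4 clone 4 libraries took part, and clone 8 has 1 vehicle library, whose spread is assumed to be that of the other groups. Of 514 genes that passed this test 510 were higher in clone 8. That vehicle library is clone8_1, in which short transcripts were low. Over 13 alternatives the difference ranged from 1.58 to 1.95. The call was lost without tamoxifen clone4_1 (difference 1.64) and without tamoxifen clone4_2 (difference 1.84).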

How the results depend on the processing

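No member was called by treatment in any of 18 alternatives. Under the 3 other scalings all 10 members kept their sign and the median change was 0.23 to 0.24; over all 18 alternatives that median ranged from 0.11 to 0.37. Klf4, Esrrb, Prdm14 and Tfcp2l1 kept their sign in all 18 and Gbx2 in 17, the filter at a mean count of 50 leaving it out. Over all genes, DESeq2 called 4 and the fit without both clone8_1 libraries called 2, against 0. With both clone8_1 libraries left out the changes of Nanog, Klf2 and Klf5 were 0.08, -0.02 and -0.19, and in clone 4 alone they were 0.18, -0.02 and -0.75, all of the other sign. Klf5 was also below 0 with limma voom (-0.29) and with clone as a covariate (-0.09). Same-named libraries did not deviate together (correlations of 0.00775, 0.0206 and -0.0683 over genes). Pairs with other names lay between -0.085 and 0.0624, so no pairing by name was seen, but this check cannot exclude it. With the replicate block 0 genes were called, Klf5 was at -0.23 and Tbx3 at -0.10, and the count of members above 0 went from 8 to 6. Leaving out single libraries gave -0.19 to 0.27 for Klf5, -0.08 to 0.17 for Tbx3 and -0.10 to 0.11 for Zfp42. The number of members with a clone by treatment difference was 2 (Klf2 and Klf5) with DESeq2 and without a filter, and 0 to 2 when single libraries were left out; the cause was not tested. Without vehicle clone8_1 that test could not be fitted. Of 60 levels per kilobase 6 moved by more than 1 SD, all with the longest transcript as the length (Klf5, Esrrb and Tbx3). No partner gene was called in the 4 alternatives run for that list. Low counts limit Gbx2 alone among the members.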
